A study of Schizosaccharomyces pombe with 56 samples.

Results

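The transfer RNA (tRNA) genes of fission yeast, Schizosaccharomyces pombe, were examined for dimethylation of histone H3 at lysine 9 (H3K9me2) in growing cells and in cells made quiescent by nitrogen starvation. The members were all 171 genes of tRNA biotype among the 12606 annotated genes of chromosomes I, II and III, together with every H3K9me2 region listed in the authors' deposited table that overlapped one of them by at least 1 bp. Regions wider than 40000 bp that cover a centromere were taken as the 3 centromere regions, and tRNA genes inside them or within 10 kb were kept apart from those on the arms. The annotated genes fell into 39 inside a centromere region, which lie under a region by definition, 16 beside one and 116 on the arms. Of the 2192 regions in the authors' deposited table, 5 overlapped a tRNA gene, namely the 3 centromere regions and 1 region each beside centromeres II and III. The places of genes and regions chose these members, without use of the listed means. How regions came to be listed is not stated, and listing may itself depend on the reads. A region at the lowest value at 0 h may have been listed through its 24 h reads alone, which would favour a rise.

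The members nearest to each threshold were as follows. The narrowest of the 3 centromere regions was 40986 bp wide, and the next widest region listed was 37131 bp wide. The farthest tRNA gene counted with a centromere lay 2956 bp outside its region, and the nearest one counted with an arm, SPOM_SPATRNAARG.02, lay 13113 bp outside.

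The series holds 56 ChIP-seq libraries, with 24 immunoprecipitated for H3K9me2, 6 for H3K9me3 and 26 inputs. The comparison described here is of the wild-type strain, wt (975 h+), for which 6 H3K9me2 libraries are labelled 0 h and 6 are labelled 24 h. The deposited table carries the digits 1, 3, 4, 5 and 6 in its name, without a 2, and how many of these libraries entered it is not stated. At 0 h the cells grew in EMM, a minimal medium, with adenine, histidine, leucine, lysine and uracil added at 32C, and for 24 h they were kept in the same kind of medium without nitrogen (EMM -N). The deposited table gives 1 mean per group and region in normalised reads, without a spread or a depth for any library. The 1 h libraries, the strains clr4D (975 h+ clr4D::NatMX6) and ago1D, and the H3K9me3 libraries were not analysed here. Neither deletion is carried by the wild-type groups.

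In fission yeast H3K9me2 is laid down by the methyltransferase Clr4 and marks the heterochromatin of the centromeres, the telomeres and the mating-type locus. Genes for tRNA are transcribed by RNA polymerase III. Its factor TFIIIC recognises 2 short elements inside each gene, the A box and the B box. Clusters of tRNA genes stand at the borders of the pericentromeric heterochromatin and of the central core, and a tRNA-Ala gene of centromere I is known from earlier work as a barrier that keeps heterochromatin out of the neighbouring chromatin.

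The tRNA genes at the change with the smallest p-value stand in a row just right of the centromere II region. Their sequences are shown in the sense of transcription, introns included, as read from the RefSeq genome of build ASM294v3. Capitals mark a match to the B box consensus GGTTCGANNCC, searched on both strands. The first 4 genes lay under the region that was higher at 24 h.

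SPOM_SPBTRNAILE.08 (chrII:1645424-1645497, + strand): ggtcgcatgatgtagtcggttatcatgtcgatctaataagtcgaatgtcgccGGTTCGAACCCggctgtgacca

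SPOM_SPBTRNAALA.11 (chrII:1645571-1645644, - strand): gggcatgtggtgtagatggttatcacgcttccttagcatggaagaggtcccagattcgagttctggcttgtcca

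SPOM_SPBTRNAVAL.08 (chrII:1646305-1646387, - strand): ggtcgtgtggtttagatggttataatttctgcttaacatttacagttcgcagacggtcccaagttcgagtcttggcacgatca

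SPOM_SPBTRNAGLU.07 (chrII:1646829-1646900, - strand): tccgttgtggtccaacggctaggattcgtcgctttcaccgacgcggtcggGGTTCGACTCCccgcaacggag

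The next 3 genes belong to the same row and lay under no region. The first pair stands between the centromere region and the region that was higher at 24 h, and the tRNA-Arg gene stands beyond both.

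SPOM_SPBTRNAGLY.08 (chrII:1644675-1644745, - strand): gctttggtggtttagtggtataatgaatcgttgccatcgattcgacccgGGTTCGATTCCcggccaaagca

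SPOM_SPBTRNALYS.08 (chrII:1645044-1645126, + strand): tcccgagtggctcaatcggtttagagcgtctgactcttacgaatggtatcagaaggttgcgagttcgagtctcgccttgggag

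SPOM_SPBTRNAARG.07 (chrII:1647283-1647355, - strand): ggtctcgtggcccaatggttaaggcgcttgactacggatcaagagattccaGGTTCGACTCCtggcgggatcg

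The last sequence is a tRNA-Glu gene on the arm of chromosome I, shown because it is identical to the tRNA-Glu gene under the region and itself lay under none.

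SPOM_SPATRNAGLU.01 (chrI:718119-718190, - strand): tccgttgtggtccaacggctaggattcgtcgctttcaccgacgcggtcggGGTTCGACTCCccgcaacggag

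The B box consensus did not set the genes beside the centromeres apart. It was present in 23 of 39 tRNA genes inside a centromere region (59.0%), in 8 of 16 beside one (50.0%) and in 66 of 116 on the arms (56.9%). For background, it was found in 0 of 5113 protein-coding genes and in 1 of 7133 long noncoding RNA genes (0.0140%) when the 73 bases of each at its lower coordinate, whatever its strand, were searched, 73 bp being the median length of a tRNA gene. It was also in 0 of 36 genes for 5S ribosomal RNA, which RNA polymerase III transcribes from a different internal element. A gene without capitals above only lacks these exact letters.

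The region over 4 tRNA genes of the row right of centromere II went from the lowest value of the table to a level per length near that of a centromere. It spans chrII:1645479-1647041 (1563 bp) and starts 880 bp outside the centromere region. In the authors' deposited table its mean was 0.77 normalised reads at 0 h and 347 at 24 h. The 0 h mean is the lowest value listed, at which 1154 of the 2192 regions (52.6%) stood at 0 h. The log2 change of this region in the authors' deposited table was 8.82 with an FDR of 4.81e-09, and its p-value had rank 1 of all regions. With the 0 h mean raised to 3 counts per library (2.31 normalised reads), a floor chosen here, the deposited 24 h mean was at least 150-fold higher. For background, 32.7% of the 1385 regions tested in the authors' deposited table were higher at 24 h at an FDR of 0.05 (453 regions), and 0.722% were lower (10 regions). With the regions of p 1 included, these shares were 20.7% and 0.456%.

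Per kb, the authors' deposited table gives 0.492 normalised reads at 0 h and 222 at 24 h for this region. That 24 h level was 1.01 times that of the centromere I region, 0.774 times that of centromere II and 0.675 times that of centromere III. It had rank 8 among all regions of the authors' deposited table and rank 1 among the 453 higher at 24 h, of which the next reached 114 per kb and the median was 22.2 per kb. Every other region higher at 24 h thus had fewer reads per kb at 24 h than this one.

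The region covers SPOM_SPBTRNAALA.11, SPOM_SPBTRNAVAL.08 and SPOM_SPBTRNAGLU.07 in full, and the last 19 bp of SPOM_SPBTRNAILE.08. These genes encode tRNAs for alanine, valine, glutamate and isoleucine. SPOM_SPBTRNAGLY.08 and SPOM_SPBTRNALYS.08 start 77 and 446 bp outside the centromere region, in the gap between both regions. SPOM_SPBTRNAARG.07 lies 241 bp past the outer end of the region. The authors' deposited table lists no region over these 3 genes, which does not show that they carried no H3K9me2.

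**Figure D1:**
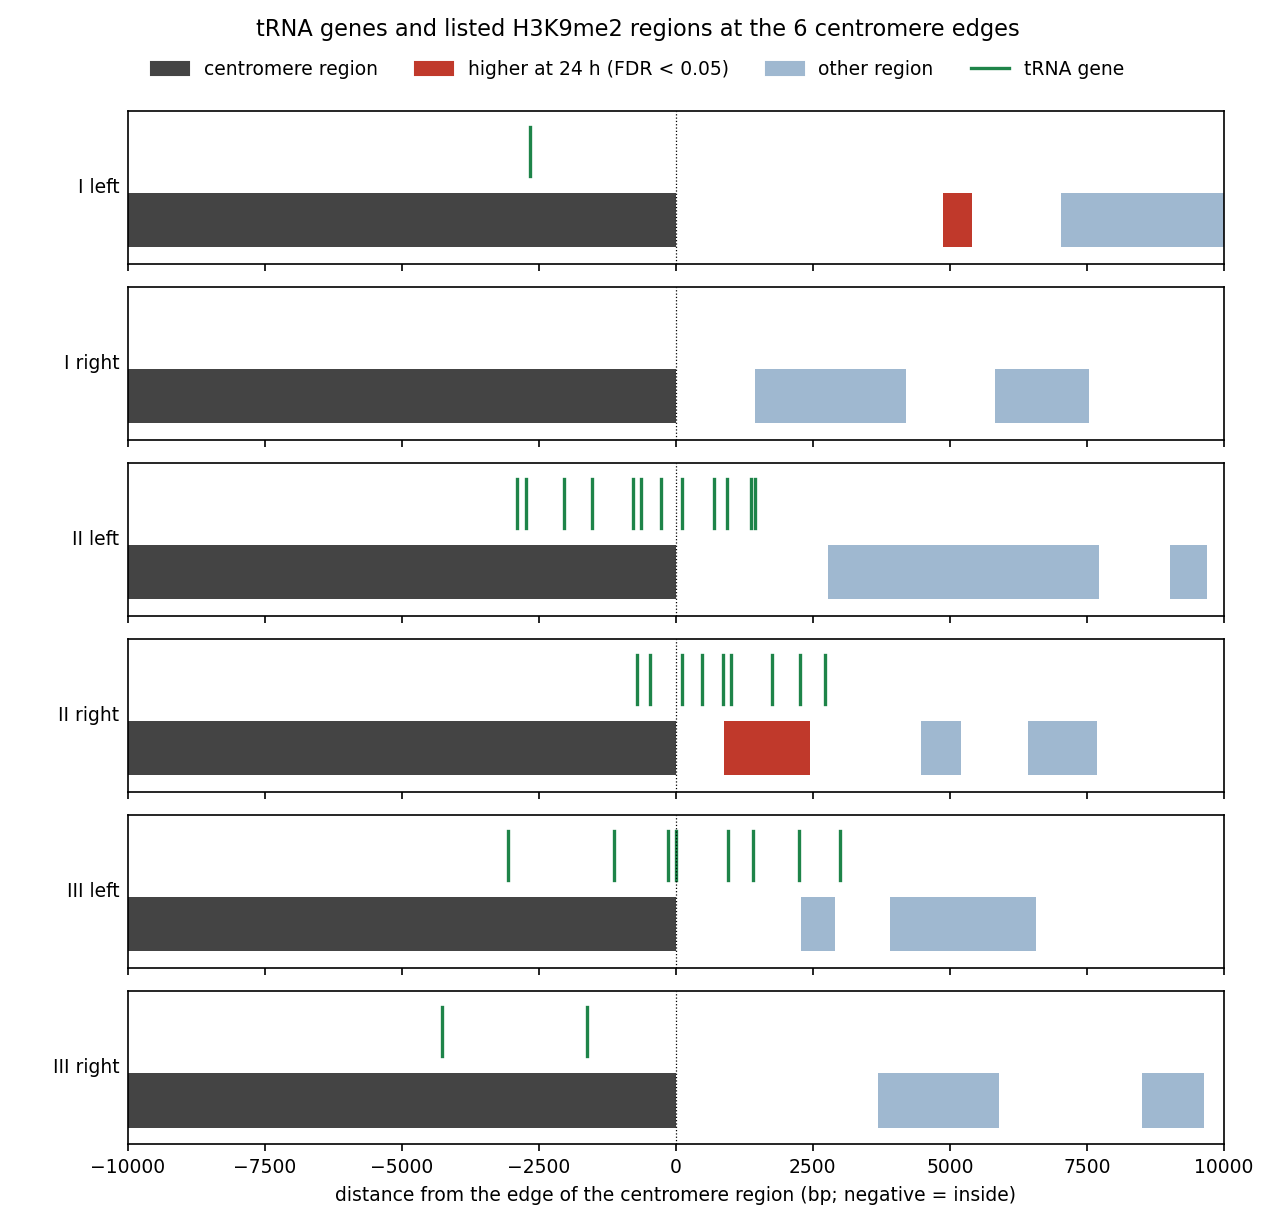
Position of tRNA genes (green lines, at the gene midpoint) and of regions of the authors' deposited table (bars) at both edges of the 3 centromere regions, with distance from the edge in bp on the horizontal axis and negative values inside. The red bar over tRNA genes right of centromere II is the region with means of 0.77 and 347, and the other red bar, left of centromere I, covers no tRNA gene.

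Beside centromere III a single tRNA gene was touched by a region of low level. The region spans chrIII:1065174-1065797 (624 bp), starts 2275 bp outside the centromere region and covers 20 bp of SPOM_SPCTRNAVAL.12, a tRNA-Val gene. The authors' deposited table gives it means of 0.77 at 0 h, again the lowest value, and 11.9 at 24 h, with a log2 change of 3.96. It carries a p of 1 in the authors' deposited table, as do 807 regions that took no part in the FDR, so no change was called. With the 0 h mean raised to the same floor of 3 counts per library, the deposited 24 h mean was at least 5.17-fold higher. Its 24 h level of 19.1 normalised reads per kb was above the median of 10.5 over all regions of the authors' deposited table, and had rank 529.

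The other tRNA genes beside the centromeres lay under no region. Left of centromere II these were SPOM_SPBTRNAGLY.07, SPOM_SPBTRNALEU.06, SPOM_SPBTRNATYR.02, SPOM_SPBTRNAMET.05 and SPOM_SPBTRNAASN.01, which lie 78, 640, 891, 1330 and 1416 bp outside the centromere region. Left of centromere III they were SPOM_SPCTRNAARG.10, SPOM_SPCTRNASER.09 and SPOM_SPCTRNAALA.12, at 909, 1364 and 2956 bp. Chromosome I had no tRNA gene beside its centromere region. At the left edge of centromere III the gene SPOM_SPCTRNAASP.05, whose product is annotated as tRNA-Asn, straddled the edge with 27 bp inside. Right of centromere III the outermost tRNA gene, SPOM_SPCTRNAPHE.05, lay 1580 bp inside.

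Inside the centromere regions the tRNA genes have no value of their own, since each domain is 1 region of the table. The means below are those of whole domains, and the level at single tRNA genes within them is not known. Centromere I, chrI:3749705-3790690, holds 7 tRNA genes, with 2 each for alanine, glutamate and isoleucine and the tRNA-Phe gene SPOM_SPATRNAPHE.02 nearest to its left edge. In the authors' deposited table its mean was 19440 at 0 h and 9019 at 24 h, a log2 change of -1.11 with an FDR of 0.594. Centromere II, chrII:1599485-1644598, holds 15, with 3 each for isoleucine, alanine and valine. Its mean in the authors' deposited table was 22833 at 0 h and 12953 at 24 h, a log2 change of -0.82 with an FDR of 0.503. Centromere III, chrIII:1068073-1143844, holds 17, with 3 each for arginine and leucine among them. Its mean in the authors' deposited table was 48464 at 0 h and 24957 at 24 h, a log2 change of -0.96 with an FDR of 0.224.

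The level at 24 h was thus 46.4%, 56.7% and 51.5% of that at 0 h for centromeres I, II and III in the authors' deposited table, and none of the 3 passed the threshold. Per kb the authors' deposited table gives 474, 506 and 640 normalised reads at 0 h and 220, 287 and 329 at 24 h, in the same order. The sizes of these log2 changes rest on the authors' scaling of the libraries. They were smaller at -0.57, -0.28 and -0.42 when both groups were scaled to the same total, a shift of 0.54, and larger at -2.83, -2.54 and -2.68 when the tested regions were given the same median, a shift of -1.72. Under the authors' scaling the median log2 change of the tested regions was 1.72 in the authors' deposited table.

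**Figure D2:**
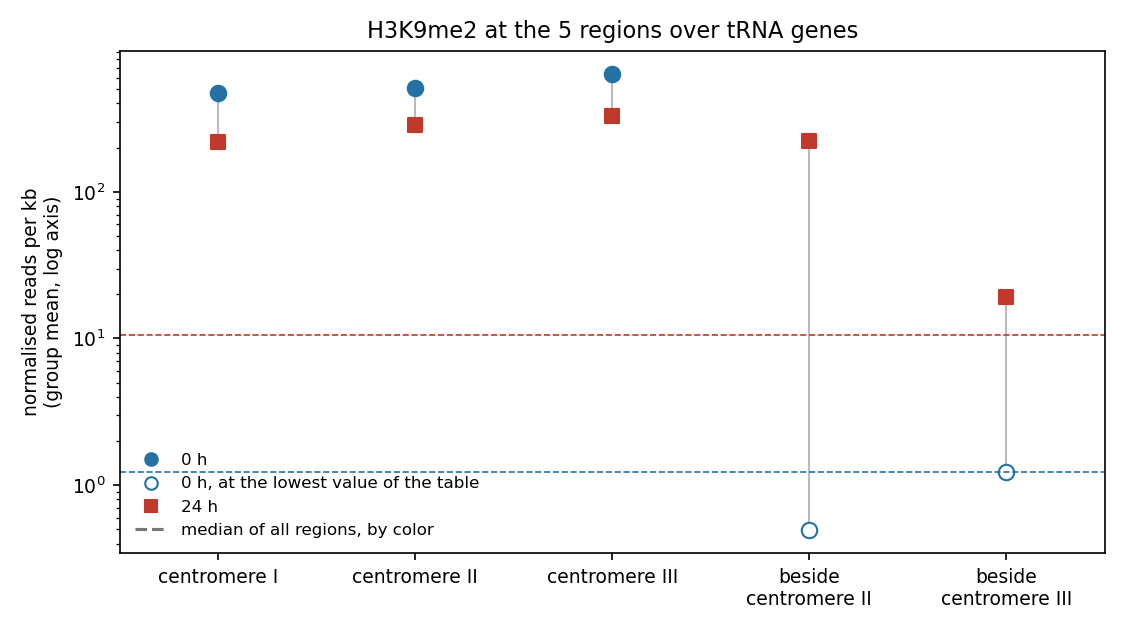
Normalised reads per kb (log axis) in the authors' deposited table for the 5 regions over tRNA genes, as group means at 0 h (circles, open at the lowest value of the table) and at 24 h (squares), with dashed lines at the median of all regions in each group. The centromere regions moved from 474 to 220, 506 to 287 and 640 to 329 per kb. The region beside centromere II moved from 0.492 to 222, and that beside centromere III from 1.23 to 19.1.

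Regions close to the centromeres that cover no tRNA gene stayed far below the region over tRNA genes right of centromere II. There were 11 within 10 kb of a centromere region, of which 10 were tested in the authors' deposited table. Their means at 24 h in the authors' deposited table ran from 0.771 to 110.0, and their log2 changes from 0.00 to 4.31. The highest change belonged to the only one that passed the threshold, chrI:3744302-3744826, with means of 0.958 and 19.0 and an FDR of 0.00868 in the authors' deposited table. Beyond the row of tRNA genes, the next region outward, chrII:1649070-1649796, had means of 0.77 and 4.64 and an FDR of 0.0907 in the authors' deposited table.

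The row of tRNA genes right of centromere II is a copy of a row left of it. A stretch of 3131 bp occurs in the reference on both sides, at chrII:1598511-1601641 and at chrII:1643849-1646979, in the same orientation, 45338 bp apart and with 1 mismatch. It carries 8 tRNA genes on each side, for tyrosine, leucine, glycine, lysine, isoleucine, alanine, valine and glutamate, in this order from left to right. The edges of the centromere region in the authors' deposited table cut both copies at nearly the same place, 974 bp from the start of the left copy and 749 bp from the start of the right one, a difference of 225 bp. The tRNA-Gly gene therefore lies outside on both sides. The genes for lysine, isoleucine, alanine, valine and glutamate are inside the centromere region on the left and outside it on the right, and those for tyrosine and leucine are inside on the right and outside on the left.

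Of the region that was higher at 24 h, 1501 bp (96.0%) lie in the right copy, so its sequence also stands inside the left end of the centromere II region. Of its 50-base words, 95.9% occur elsewhere in the genome, each time also in a centromere region. For the region beside centromere III the share was 71.8%, and for the centromere regions themselves 87.1%, 78.3% and 90.4%. Over all regions of the 3 chromosomes the median share was 0%, and 42 regions (1.92%) had more than 50% of their words repeated. Of the regions on these chromosomes that the authors called higher, 12 (2.66%) did. Reads from identical copies cannot be told apart, how the authors placed them is not given in the sources used here, and the part of this repeat in the change from 0 h to 24 h was not tested.

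The tRNA-Ala and tRNA-Val genes under the region form a module of 817 bp that recurs at the centromeres. The module of SPOM_SPBTRNAALA.11 and SPOM_SPBTRNAVAL.08 is identical to that of SPOM_SPBTRNAALA.08 and SPOM_SPBTRNAVAL.05 at the left end of the centromere II region and to that of SPOM_SPBTRNAALA.09 and SPOM_SPBTRNAVAL.06 in its interior. It is 99.0% identical to that of SPOM_SPBTRNAALA.10 and SPOM_SPBTRNAVAL.07, also in the interior, with 8 mismatches. The module of SPOM_SPCTRNAALA.12 and SPOM_SPCTRNAVAL.12 left of centromere III is 84.5% identical, with 127 mismatches. Of these 5 modules, the 3 inside the centromere region belong to the centromere II domain, while right of it the module was under the region that was higher at 24 h, and left of centromere III only the tRNA-Val gene was touched by a region.

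On the arms no tRNA gene lay under a region. This was so for 49 genes on chromosome I, 41 on chromosome II and 26 on chromosome III, 0 of 116 in all, with every one of the 20 amino acids represented. The arm genes most often encode tRNAs for serine (12 genes), glycine (10) and proline (9). By locus tag, genes for cysteine, glutamine, histidine, proline and tryptophan stood on the arms alone. An absent region means that the authors' deposited table lists none there, and the level of H3K9me2 at these genes is not known from it.

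Some tRNA genes have identical copies on an arm and at a centromere. The 171 genes have 69 distinct sequences, and 13 of these sequences occur both on an arm and at a centromere. They account for 43 arm genes, of which 0 lay under a region, and for 38 centromere genes. Of the latter, 28 are inside a centromere region, which puts them under a region by definition, and of the 10 beside one 4 lay under a region. The tRNA-Glu gene SPOM_SPATRNAGLU.01 shown above is 1 of these arm copies. The 35 arm genes whose sequence is at no other tRNA gene were singled out after the data were seen, and 0 of them lay under a region. These 35 and the 43 arm copies are parts of the arm set, in which no gene lay under a region. Both counts of 0 were thus fixed beforehand and say nothing about shared sequence.

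Arm tRNA genes stand almost all between protein-coding genes, where the table lists few regions. Regions of the authors' deposited table cover 34.8% of all arm bases, 42.3% of those inside protein-coding genes and 8.62% of those outside them. Only 1 arm tRNA gene has its midpoint inside a protein-coding gene, and the median distance of the midpoints from the nearest protein-coding gene was 426.5 bp. Of arm bases up to 250 bp from a protein-coding gene 5.24% were covered, of those from 250 to 500 bp 5.37% and of those from 500 to 1000 bp 7.75%, and these bins hold 27, 47 and 36 tRNA midpoints. The remaining 5 tRNA midpoints lie farther out, where 28.8% of bases were covered. Regions higher at 24 h cover 5.49% of arm bases and 0.759% of those outside protein-coding genes.

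Other short genes on the arms were counted the same way. Of the 5S ribosomal RNA genes 0 of 36 lay under a region, and of the small nuclear RNA genes 0 of 6. Of the genes of ncRNA biotype, with a median length of 122 bp, 1 of 33 (3.03%) did. Of the small nucleolar RNA genes, which guide the modification of ribosomal RNA and are transcribed by RNA polymerase II as a rule, 8 of 66 (12.1%) did. Much longer genes lay under a region more often, with 2782 of 5085 protein-coding genes (54.7%) and 2764 of 6974 long noncoding RNA genes (39.6%). The median tRNA gene is 73 bp long, the median small nucleolar RNA gene 114 bp and the median protein-coding gene 1773 bp, so these shares are not on an equal footing.

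Distances to the nearest region show a gap around the tRNA genes. The nearest region to any arm tRNA gene was 269 bp away, the median distance 1163.5 bp and the farthest 9482 bp, at SPOM_SPATRNAALA.01. The median was 1281 bp on chromosome I, 1027 bp on chromosome II and 844.5 bp on chromosome III. For the 5S genes the lowest distance was 366 bp and the median 1119 bp, and for the small nucleolar RNA genes 0 bp and 785.5 bp. A region stood within 500 bp of 6 tRNA genes (5.17%), 2 genes for 5S RNA (5.56%) and 23 small nucleolar RNA genes (34.8%). Within 1000 bp the shares were 44.0%, 41.7% and 62.1%, and within 5000 bp 95.7%, 97.2% and 98.5%. The tRNA and 5S genes had similar shares at each distance, and the small nucleolar RNA genes had a larger share within the first kb. The median distance was also similar, at 1104 bp, for the 33 arm genes of ncRNA biotype, and 1143 bp for the 6 small nuclear RNA genes. Their shares were 18.2% and 16.7% within 500 bp, and 48.5% and 50.0% within 1000 bp. A median distance of this size is thus not particular to tRNA and 5S genes.

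Around the midpoints of the 116 arm genes, no region was present at any position from 500 bp upstream to 300 bp downstream. At 600 bp upstream 0.862% of the genes had a region, at 1000 bp upstream 19.0% and at 2000 bp upstream 42.2%. Downstream the share was 2.59% at 400 bp, 24.1% at 1000 bp and 34.5% at 2000 bp, near the 34.8% of all arm bases. Sequence repeats were scarce here. Within 500 bp on each side of an arm tRNA gene the median share of 50-base words found elsewhere was 2.74% and the highest 18.7%, against a median of 57.2% for the 16 genes beside the centromeres. Regions of the table are wide, with a median of 1557 bp over all regions, which limits how sharply such a gap can be placed.

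**Figure D3:**
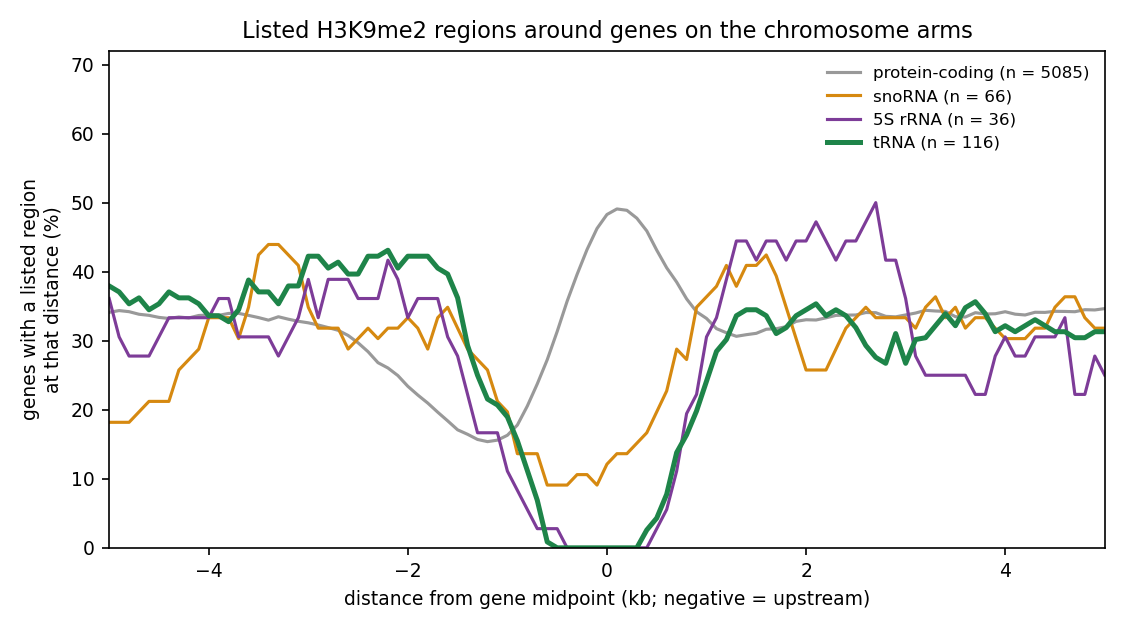
Share of arm genes (percent) with a region of the authors' deposited table at each distance from the gene midpoint (kb, negative upstream), for tRNA, 5S rRNA, snoRNA and protein-coding genes. The tRNA curve is at 0% from -500 to 300 bp and reaches 42.2% at 2000 bp upstream, while the curve of protein-coding genes is highest near its midpoint.

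The regions nearest to arm tRNA genes lay over protein-coding genes. Regions cover 42.3% of arm bases inside such genes and 8.62% of those outside. The share of all regions that overlap one is not given here. There were 52 regions within 1000 bp of an arm tRNA gene, and each of them overlapped a protein-coding gene. Of these, 41 were tested in the authors' deposited table, and 17 were higher at 24 h, that is 41.5% of those tested against 32.7% over all tested regions, and 32.7% against 20.7% when regions with a p of 1 are counted too. A further 24 were tested and did not pass, and 0 were lower. The median log2 change was 2.81 against 2.43 over all regions of the authors' deposited table, the median 24 h mean 16.2 against 15.1, and 55.8% stood at the lowest value at 0 h against 52.6%. These values lay close to those of the whole table. The gap in the share called higher rests on 41 tested regions and was not tested. It is not read as a trait of regions near tRNA genes. In all, 19 arm tRNA genes had a region higher at 24 h within 1000 bp, and 0 had a lower one.

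The 17 regions that were higher had 24 h means between 8.52 and 220 and a median of 23.2 by the authors' deposited table, and 15 of them were at the lowest value at 0 h. The nearest to a tRNA gene spans chrII:2940056-2940890, 269 bp from SPOM_SPBTRNAPRO.07, a tRNA-Pro gene, and overlaps SPOM_SPBC1703.13C. In the authors' deposited table its mean went from 0.77 to 50.6 with an FDR of 0.00102. The region 303 bp from the tRNA-Ala gene SPOM_SPBTRNAALA.07 went from 0.77 to 27.6 with an FDR of 0.00437 in the authors' deposited table. Close to the tRNA-Met gene SPOM_SPATRNAMET.02, at 390 bp, the region over thi9, which encodes a thiamine transporter, went from 0.77 to 49.0 with an FDR of 0.00201 in the authors' deposited table. The tRNA genes beside these 3 regions lay under no region, as did all 116 on the arms, and their own level is not known.

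The highest of the 17 by its 24 h mean lay 751 bp from the tRNA-Ser gene SPOM_SPCTRNASER.11, over tef3, which encodes translation elongation factor eEF3. The authors' deposited table gives it means of 0.77 and 220 and an FDR of 5.5e-05. The region over amt1, an ammonium transporter gene, lay 566 bp from another tRNA-Ser gene, SPOM_SPCTRNASER.13. Its means in the authors' deposited table were 0.77 and 142 with an FDR of 0.000119, at least 61.5-fold higher at 24 h against 3 counts per library. Of the 52 regions, 6 had a lower 24 h mean by the authors' deposited table, and the lowest FDR among these was 0.205.

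**Figure D4:**
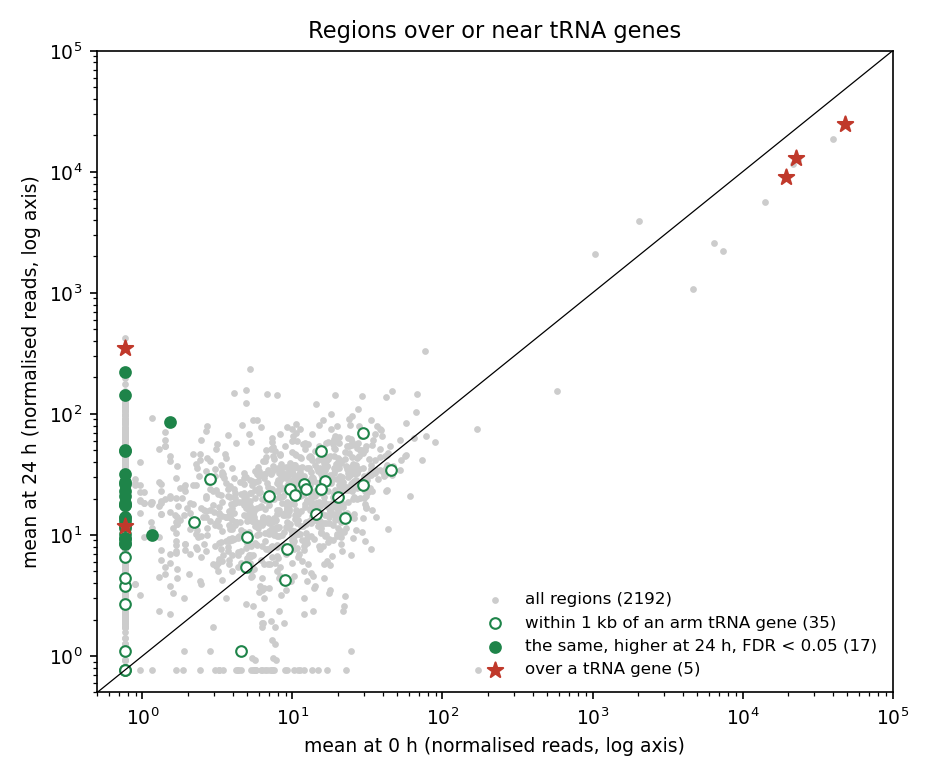
Group means in normalised reads at 0 h and 24 h (both log axes) in the authors' deposited table, with all 2192 regions in grey, the 52 within 1 kb of an arm tRNA gene as green circles, filled for the 17 higher at 24 h, and the 5 over a tRNA gene as red stars, and with a line of equal means. The 3 centromere regions lie below the line, and the region over tRNA genes beside centromere II stands at 0.77 and 347.

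The genes that make and process tRNA lay under a region higher at 24 h at shares near that of all protein-coding genes, which was 10.5%. Of 25 genes for RNA polymerase III subunits and factors, the authors' deposited table puts 2 (8.00%) under a region higher at 24 h, 0 under a lower one, 5 under one tested without passing, 4 under a region with a p of 1 and 14 under none. For background, 535 of 5113 protein-coding genes (10.5%) lay under a region higher at 24 h and 10 under a lower one. The polymerase subunit gene rpc82 had means of 0.77 and 69.0 with an FDR of 0.0013 in the authors' deposited table, at least 29.9-fold higher. The subunit gene rpc53 had means of 0.77 and 6.72 with an FDR of 0.0377 in the authors' deposited table, at least 2.91-fold higher.

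Of 35 genes for aminoacyl-tRNA ligases, the enzymes that load tRNAs with amino acids, the authors' deposited table puts 4 (11.4%, against 10.5% of all protein-coding genes) under a region higher at 24 h, 0 under a lower one, 15 under one tested without passing, 9 under a region with a p of 1 and 7 under none. The leucine ligase gene lrs1 went from 0.77 to 92.4 with an FDR of 0.000342 in the authors' deposited table, at least 40.0-fold higher. The phenylalanine ligase subunit gene frs1 went from 0.77 to 53.2 with an FDR of 0.00192 in the authors' deposited table, and the lysine ligase gene msk1 from 0.77 to 11.9 with an FDR of 0.0147. The proline ligase gene prs1 shares its region with sen34, which encodes a subunit of the tRNA-splicing endonuclease. For that region the authors' deposited table gives means of 2.65 and 33.9, with 3.68 as the log2 change and an FDR of 0.0361.

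Of 61 other genes for tRNA processing and modification, the authors' deposited table puts 6 (9.84%, against the same 10.5%) under a region higher at 24 h, 0 under a lower one, 6 under one tested without passing, 9 under a region with a p of 1 and 40 under none. The largest changes were at trz2, a gene for the endonuclease that trims tRNA 3′ ends, with means of 0.77 and 51.5, and at dus3, a dihydrouridine synthase gene, with means of 0.77 and 49.7. Their FDR values in the authors' deposited table were 0.00201 and 0.00205. The methyltransferase gene trm1 reached 18.4 with an FDR of 0.00495 in the authors' deposited table. The median log2 change of members under a region in the authors' deposited table was 2.63 for the polymerase genes, 2.47 for the ligases and 3.66 for the processing genes, against 2.43 over all regions.

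Of the further RNA genes listed here, which are the 5S genes, snu6, srp7 and rrk1, only rrk1 lay under a region. Which polymerase transcribes rrk1 was not examined. None of the 36 genes for 5S RNA lay under a region, nor did snu6 and srp7, the genes for the U6 spliceosomal RNA and the RNA of the signal recognition particle. The gene rrk1, for the RNA of ribonuclease P, lay under a tested region at the lowest value in both groups, with means of 0.770 and 0.771 and an FDR of 0.988 in the authors' deposited table.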

How the data were processed

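Chromatin from cross-linked wild-type cells was immunoprecipitated for H3K9me2 and sequenced. The names Bowtie2 2.2.7, MACS2 2.1, DiffBind 1.16.3 and DESeq2 and the build ASM294v2 come from the submitters' processing notes, which give neither role nor order. The authors deposited, per the file headers, group means and a fold on the log2 scale, in normalised reads, with a p-value and an FDR for each region. The log2 means were turned into normalised reads and the fold into 24 h minus 0 h. The deposited FDR equals a Benjamini-Hochberg adjustment over the 1385 regions with a p below 1, with a largest difference of 1.5e-15. Any input subtraction, the merging of regions and the placing of repeated reads are not stated in the labels or headers. The depth per library is not in the table, so low means are the least certain, and since separate cultures are not named in the labels, the p-values measure only the spread between libraries, which may be technical.

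Gene positions are those of RefSeq on ASM294v3, whose 3 nuclear chromosome lengths equal the last region ends of the table, with a difference of 0 bp. Region starts in the file count from 0, so 1 was added. Regions on other contigs overlap none of these genes. Folds against a mean at the lowest value listed are bounds, computed with 3 counts per library, a choice made here, on the authors' scale. They bound the deposited values and not H3K9me2 itself. Repeats were sought as identical 50-base words on both strands. Overlaps, repeats and motif searches were run with Python 3.11.15, pandas 2.3.3 and numpy 2.4.6 and checked on simulated data with known answers.

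The members and lists were chosen with earlier results of these data known. All tRNA genes at centromeres were named through their regions, and of each list the up to 4 largest changes past the threshold. As no region covered an arm tRNA gene, the rule for naming such regions gave none, and the neighbours named in the text were chosen after their values were seen. The wording that picks ligases was widened after the annotation was read, since its product names put the amino acid in brackets before the word ligase. Alternatives were another overlap, distance, FDR and scaling, and a floor on low values.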

Additional observations from a re-analysis of the deposited data

How the results depend on the processing

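The count of 0 arm tRNA genes under a region was unchanged with whole genes required inside and at distances of 5000 or 20000 bp. It was also 0 among the 35 genes with a sequence of their own, an alternative chosen after seeing the data. None of these could have changed it, since each keeps the same genes, takes fewer of them or asks for more overlap. The count was 6 with genes extended by 500 bp on each side and 51 with 1000 bp. It was 5 when only genes inside a centromere region were set apart, which adds the 5 covered genes beside centromeres. The tRNA genes under a higher region numbered 4 at every FDR or p threshold tried, 3 when whole genes had to lie inside, 11 with 500 bp and 26 with 1000 bp added, and those under a lower region 0 throughout. Centromere genes under a region numbered 39 to 53, against 44. Scaled to the same total, the log2 changes were -0.57, -0.28 and -0.42 for centromeres I, II and III. For the regions beside centromeres II and III they were 9.35 and 4.49. Scaled to the same median of tested regions they were -2.83, -2.54, -2.68, 7.10 and 2.24. With means raised to 3 counts per library, the regions beside centromeres II and III gave 7.23 and 2.37. No value reversed. The change of regions over arm tRNA genes has no value, as there are none. Leaving out replicates was not run. No paired analysis was possible because the table holds 1 mean per group. Depth per library is unknown, so means at the lowest value are the least certain.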

Other observations

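By locus tag, the 55 tRNA genes at centromeres covered 15 amino acids, with 11 among the 39 genes inside the centromere regions and 12 among the 16 beside them, and the 116 arm genes covered 20. Alanine, isoleucine and valine, with 5 genes each, led inside the centromere regions. Asparagine, glycine, methionine and serine were present beside these regions and had no gene inside by locus tag. Genes split by an intron numbered 12 of 39 inside, 6 of 16 beside and 26 of 116 on the arms. Of the 38 genes whose sequence occurs at no other tRNA gene, 35 stood on the arms, 1 inside a centromere region and 2 beside one. In 5 genes the locus tag names aspartate and the annotated product is tRNA-Asn, and 4 of these lie inside the centromere regions, SPOM_SPBTRNAASP.05, SPOM_SPCTRNAASP.05, SPOM_SPCTRNAASP.06 and SPOM_SPCTRNAASP.07. All of the 5 but SPOM_SPBTRNAASP.05 have the same sequence as SPOM_SPATRNAASP.01, whose product is annotated as tRNA-Asp. The annotated products of identical genes thus disagree, and for these the locus tag names the amino acid alike.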
